A study of Drosophila melanogaster with 4 samples.

Results

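Panx, arx, nxf2, mael and ctp encode proteins with which the Argonaute protein Piwi silences transposons inside the nucleus of Drosophila ovarian cells. These 5 genes were picked by name out of 16356 genes that the RefSeq gene table names in the deposited table, and their 12 RefSeq transcript rows were summed per gene. The libraries were poly(A)-enriched RNA from adult Drosophila melanogaster ovaries, with 2 libraries from ovaries in which the nucleoporin Nup358 was knocked down in the germline (Nup358GLKD) and 2 from Control ovaries of the cross labelled mat>Luc. A library pooled RNA from 10 to 15 ovary pairs, so that its value is an average over animals. Beyond the word germline and the name mat>Luc, the driver and the hairpin constructs are not described in the labels. Replicates are titled as biological repeats, with no word on separate crosses, and the p-values cover the spread between the deposited samples alone. The series asks what Nup358 does in transposon silencing and in making piRNAs.

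Piwi, loaded with a piRNA, finds nascent transposon transcripts by base pairing and brings in proteins that stop transcription and place methylation on histone H3 lysine 9. Panx (Panoramix) is the adaptor that turns recruitment into silencing, and it works in a complex with nxf2, a member of the mRNA export receptor family, with the small export cofactor Nxt1 and with the dynein light chain ctp (Cut up), which holds the complex as a dimer. The zinc finger protein arx (Asterix, the fly Gtsf1) binds Piwi itself, and the HMG box protein mael (Maelstrom) acts further downstream and is not a core subunit of the Panx complex. All of these proteins work in germ cells and in the somatic follicle cells around them. A germline knockdown is not aimed at the follicle cells, and indirect effects on them were not tested here. In RNA from whole ovaries fewer cells of a type and less RNA per cell cannot be told apart.

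The targeted gene was examined first. Nup358, which forms the filaments on the cytoplasmic side of nuclear pores, had 283 and 151 CPM (expected counts scaled to the library total with TMM factors) in Nup358GLKD replicates 1 and 2 and 662 and 624 CPM in Control replicates 1 and 2. The groups did not overlap, and the knockdown libraries held 44.0% and 23.5% of the Control mean. The log2 change was −1.57 (SE 0.34) with an adjusted p of 0.0524 in edgeR's quasi-likelihood test, just outside the threshold of 0.05, and of 0.000171 in DESeq2. The libraries held 58876800 to 60792292 expected counts. Of 10191 features tested, 977 were called higher and 920 lower in Nup358GLKD. Summed markers of other tissue differed as well, for muscle in 1 knockdown library only. The 5 muscle sheath genes held 1085 and 228 CPM in the knockdown and 261 and 202 CPM in Control, so that replicate 2 lay between the Control libraries. The 4 fat body genes held 64.4 and 133 CPM in the knockdown and 42.9 and 31.7 CPM in Control. The 8 germline markers summed to 5605 and 5626 CPM in Nup358GLKD and to 3907 and 3939 CPM in Control, and the 8 follicle cell markers to 2742 and 7135 CPM in Nup358GLKD and to 7048 and 7370 CPM in Control. Among the germline markers the stem cell differentiation gene bam had 12.8 and 44.8 CPM in Nup358GLKD against 63.8 and 69.9 CPM in Control, and the oocyte gene orb had 2131 and 1685 CPM in Nup358GLKD against 716 and 702 CPM in Control. The rise of the germline sum lies mostly in orb. Both knockdown libraries lay above Control for 4 of the 8 (beside 37.9% of all features) and below for 1 (beside 39.8%), and 3 overlapped. The 3 blood cell markers summed to 8.30 and 1.36 CPM in Nup358GLKD and to 1.01 and 0.845 CPM in Control. In edgeR 1 of 8 germline markers (orb, log2 change 1.43), 1 of 8 follicle cell markers (Fas3, 1.70) and 2 of 4 fat body markers (Lsp2, 5.09, and Fbp1, 2.86) rose, with adjusted p from 0.0273 to 0.0476. Of all features 9.59% were called higher there. None of the 5 muscle sheath markers and none of the 2 tested blood cell markers passed in edgeR. Of these 0 had an unadjusted p under 0.05, beside 45.2% of all features. DESeq2 called 3 germline, 5 follicle cell, 3 muscle sheath, 3 fat body and 1 blood cell markers higher and 0 lower, beside 18.8% and 19.3% of all features. The follicle cell sum rests mostly on the eggshell genes Cp36 and Vm26Aa, which had negative log2 changes, whereas the other 6 were positive (median of the 8 log2 changes 1.08). The part that such shifts in tissue make-up have in the values of the silencing genes was not tested.

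The silencing genes did not move together. Panx and mael fell in Nup358GLKD ovaries, while arx, nxf2 and ctp did not pass the test. Of the 5 members 2 were called lower, beside 9.03% of all features tested, and 0 were called higher, beside 9.59% of features (18.6% in either direction). DESeq2 and limma-voom also called 2 lower and 0 higher, in DESeq2 beside 19.3% and 18.8% of features (38.1% in either direction). At an unadjusted p under 0.05, met by 45.2% of features, 2 members were lower and 0 higher. The median log2 change was −0.36 over the 5 members and 0.01 over all features tested. Both knockdown libraries lay below both Control libraries for 3 members (Panx, mael and arx), beside 39.8% of all features, and above them for 1 member (ctp), beside 37.9% of features.

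Panx, the adaptor between Piwi and the silencing machinery, had 20.3 and 24.6 CPM in Nup358GLKD replicates 1 and 2 and 63.1 and 66.7 CPM in Control replicates 1 and 2. Both knockdown libraries were far below both Control libraries, with 31.3% and 37.9% of the Control mean left. The means were 22.5 ± 3.05 CPM in Nup358GLKD and 64.9 ± 2.54 CPM in Control (SD, n = 2 each), a 2.89-fold lower level. The log2 change of −1.53 (SE 0.15) had a 95% interval from −1.96 to −1.10 and passed (adjusted p = 0.0279, and 2.29e-11 in DESeq2). Of all features tested, 3.77% had a log2 change as low as this or lower. Panx has a single row, so no division of reads between isoforms enters its value.

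mael, whose loss is known to release transposons in the fly ovary, had 132 and 117 CPM in the knockdown libraries and 254 and 259 CPM in the Control libraries. The knockdown libraries stood near one another, at 51.5% and 45.4% of the Control mean, and well below Control. The means were 124 ± 11 CPM in Nup358GLKD and 257 ± 3.28 CPM in Control (SD, n = 2 each), 2.06-fold lower, with a log2 change of −1.05 (SE 0.12, 95% interval −1.37 to −0.72, adjusted p = 0.0279). Of all features tested, 9.50% had a log2 change at or below that of mael. The calls of Panx and mael rested on having both Control libraries. Without Control replicate 1 and without Control replicate 2 the adjusted p was 0.255 and 0.264 for Panx and 0.280 and 0.294 for mael, when edgeR called 0 features of either direction (1717 and 1550 had an unadjusted p under 0.05). Without Nup358GLKD replicate 1, which held the most muscle sheath RNA, the log2 change was −1.40 for Panx and −1.14 for mael. Both passed there, in a fit that takes the spread from the Control libraries alone and called 33% of features lower and 29.3% higher (39.7% and 35.7% without Nup358GLKD replicate 2).

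**Figure D1:**
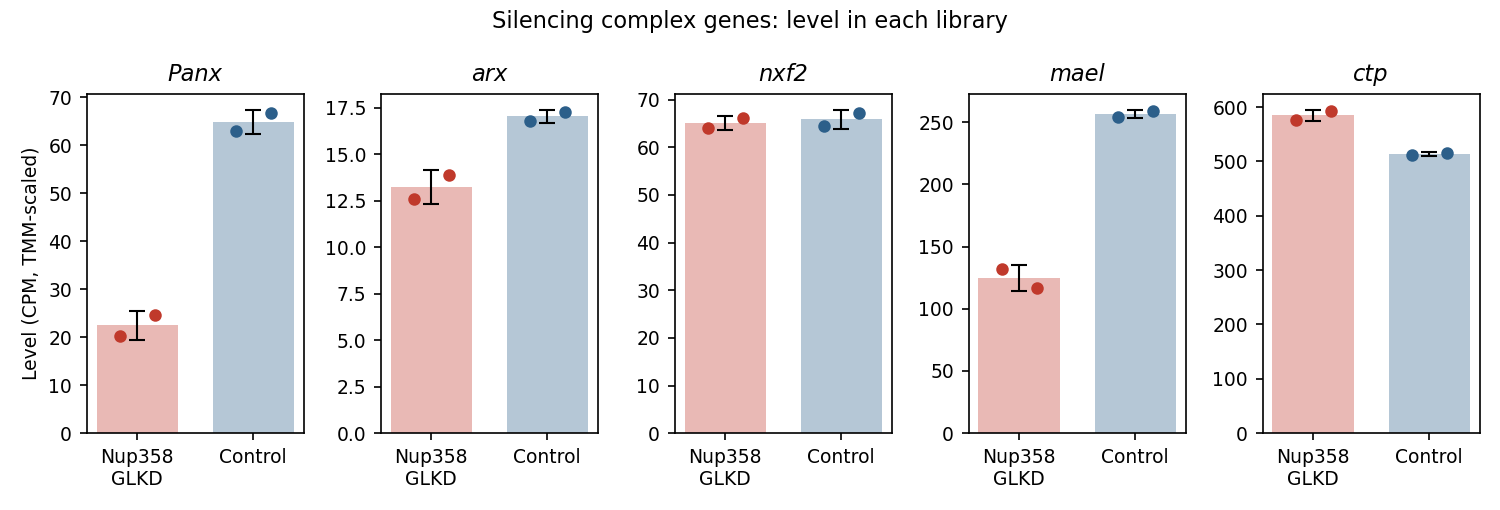
Level of each member in CPM on a linear axis from 0, with a separate scale per gene; bars are group means, whiskers the SD of 2 libraries and points the libraries. Panx falls to 20.3 and 24.6 CPM in Nup358GLKD against 63.1 and 66.7 CPM in Control, while the points of nxf2 lie at the same height in both groups.

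nxf2, the partner that Panx needs to be stable and active, showed no such difference. It had 64.1 and 66.2 CPM in Nup358GLKD and 64.4 and 67.3 CPM in Control. The groups overlapped, and the difference between them was smaller than the spread within each. The log2 change was −0.02 (SE 0.11, adjusted p = 0.912), with a 95% interval from −0.32 to 0.28, that is, from 0.803 to 1.22 times the Control level. The sign is not fixed: it was positive with RLE factors (0.0029), with upper-quartile factors (0.11), in DESeq2 (0.0029), with features of a mean of at least 5 CPM (0.13) and without Nup358GLKD replicate 1 (0.0057).

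arx, the Piwi-binding zinc finger protein, had 12.6 and 13.9 CPM in Nup358GLKD and 16.8 and 17.3 CPM in Control. Both knockdown libraries were lower, at 74.0% and 81.4% of the Control mean. The log2 change of −0.36 (SE 0.15, 95% interval −0.77 to 0.04) did not pass (adjusted p = 0.134, and 0.172 in DESeq2). The test was passed when a knockdown library was left out, with a log2 change of −0.30 (adjusted p = 0.0273) when that was replicate 1 and of −0.46 (adjusted p = 0.00578) when it was replicate 2. Those fits, with the spread taken from Control alone, called 33% and 39.7% of all features lower. Over all alternatives the adjusted p of arx ran from 0.00578 to 0.650.

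ctp is a light chain of the dynein motor and a binding hub of many other proteins besides Panx. It had 577 and 592 CPM in Nup358GLKD and 511 and 516 CPM in Control. The knockdown libraries were slightly above both Control libraries, with a ratio of the means of 1.14. The log2 change of 0.19 (SE 0.11, 95% interval −0.10 to 0.48) did not pass (adjusted p = 0.226). As with arx, the test was passed when knockdown replicate 1 (0.20, adjusted p = 0.0104) or replicate 2 (0.14, adjusted p = 0.0337) was left out, in the same fits, which called 29.3% and 35.7% of all features higher. The adjusted p ran from 0.0104 to 0.797 over all alternatives. The second LC8 gene of the fly, Cdlc2, encodes a nearly identical protein and can share reads with ctp. It had 0.018 CPM in Nup358GLKD replicate 1 and 0 in Nup358GLKD replicate 2 and in both Control libraries, and how RSEM divided reads between the genes was not tested.

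Ratios of members within a library do not depend on the scaling between libraries. The ratio of Panx to nxf2 CPM was 0.317 and 0.372 in the knockdown libraries and 0.981 and 0.991 in the Control libraries. On average it was 2.86 times higher in Control, and the groups were far apart. Panx to arx was 1.61 and 1.77 in Nup358GLKD against 3.76 and 3.85 in Control, and Panx to piwi was 0.0734 and 0.0934 in Nup358GLKD against 0.277 and 0.289 in Control. The ratio of nxf2 to piwi differed less between the groups, with 0.231 and 0.251 in Nup358GLKD and 0.282 and 0.292 in Control. Nxt1, the cofactor that pairs with nxf2, kept close to it: the Nxt1 to nxf2 ratio was 0.651 and 0.700 in Nup358GLKD and 0.624 and 0.657 in Control, and the groups overlapped. These ratios are descriptions. With 2 libraries a group, an exact two-sided permutation test cannot give a p below 0.333.

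Levels of different genes were set side by side per kilobase of coding length, taken from the BDGP6 annotation. In Nup358GLKD ovaries the means were 2189 CPM per kilobase for ctp, 90.3 for mael, 26.4 for arx, 25.8 for nxf2 and 13.8 for Panx, and in Control ovaries 1922 for ctp, 186 for mael, 40.0 for Panx, 34.0 for arx and 26.1 for nxf2. Panx was thus the third most abundant of the 5 in Control and the least abundant in the knockdown. On this scale arx (25.2 and 27.7) and nxf2 (25.4 and 26.2) overlapped in the knockdown libraries, and in Control neighbouring genes in the order did not overlap. With the median transcript length in place of the coding length, Panx had again the lowest mean in the knockdown (11.3) and the third in Control (32.7), and nxf2 (23.5 in Nup358GLKD, 23.8 in Control) stood above arx (14.9 in Nup358GLKD, 19.1 in Control) in both groups.

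The transcript rows of the members were also read singly. Of the 12 rows, 11 had enough counts to be tested, and the 1 left out, NM_001258601 of ctp, was listed at 0 in all 4 libraries, where 3 counts would be 0.0493 to 0.051 CPM. With rows tested as they stand, 0 of the 11 passed in edgeR, beside 0.0049% of all 20393 rows called lower and 0% called higher, and 5 had an unadjusted p under 0.05, beside 34.4% of rows. The rows of Panx (adjusted p = 0.0546) and the main rows of mael (adjusted p = 0.0571) fell just outside the threshold in this fit. RSEM divides reads among isoforms that share most of their sequence, so the shares below are estimates, and their exact binomial 95% intervals cover counting error only.

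For nxf2 the summed levels overlapped between the groups, while the shares of its 2 larger rows did not. The row NM_168674 held 55.7% (95% interval 54.0 to 57.3) and 65.7% (64.2 to 67.1) of nxf2 counts in Nup358GLKD replicates 1 and 2, against 76.4% (75.1 to 77.7) and 79.3% (78.0 to 80.5) in Control replicates 1 and 2. The second row, NM_079387, held 44.3% (42.7 to 46.0) and 31.1% (29.7 to 32.6) in Nup358GLKD and 22.1% (20.8 to 23.4) and 15.0% (13.9 to 16.1) in Control. The main isoform thus had a smaller share in both knockdown libraries and the second isoform a larger one. The 2 rows hold nearly all nxf2 counts, so that these are 2 views of 1 observation. For NM_079387 the knockdown replicates (44.3% and 31.1%) stood farther apart than the nearest libraries of the 2 groups (31.1% and 22.1%). How many rows of all genes have shares that do not overlap was not counted. As expression, NM_079387 averaged 24.5 CPM in Nup358GLKD and 12.2 CPM in Control (log2 change 0.94, SE 0.29, edgeR adjusted p = 0.113), and NM_168674 averaged 39.5 CPM in Nup358GLKD and 51.3 CPM in Control (log2 change −0.44, SE 0.18, adjusted p = 0.175). The third row, NM_001275024, varied between replicates of one group: it took 0% and 3.20% in Nup358GLKD and 1.46% and 5.72% in Control.

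For mael the 2 larger rows were both lower, by unequal amounts. NM_168958 averaged 105 CPM in Nup358GLKD and 192 CPM in Control (log2 change −0.93, SE 0.12, edgeR adjusted p = 0.0571). NM_079493 averaged 15.1 CPM in Nup358GLKD and 61.6 CPM in Control (log2 change −2.10, SE 0.33, adjusted p = 0.0609). Its share of mael counts was 14.8% (95% interval 14.0 to 15.6) and 9.13% (8.46 to 9.83) in the knockdown libraries and 24.3% (23.7 to 25) and 23.7% (23.0 to 24.3) in Control. The knockdown shares were both below the Control shares and differed from one another by more than counting error. How common such a gap between the groups is among rows of all genes was not counted. NM_176388 held 5.08% and 1.82% in Nup358GLKD and 2.23% and 0.472% in Control, which overlapped. The RefSeq table lists 4 mael transcripts, and 3 were analysed here.

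Nearly all ctp counts lay on the row NM_080336, with 96.4% and 97.6% in Nup358GLKD and 98.3% and 98.3% in Control. The minor row NM_167015 averaged 16.8 CPM in Nup358GLKD and 7.88 CPM in Control (log2 change 1.03, SE 0.29, edgeR adjusted p = 0.0985). Its share was 3.46% and 2.31% in the knockdown libraries, both above the 1.43% and 1.64% of the Control libraries. As for nxf2 and mael, rows of all genes with such a gap were not counted.

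**Figure D2:**
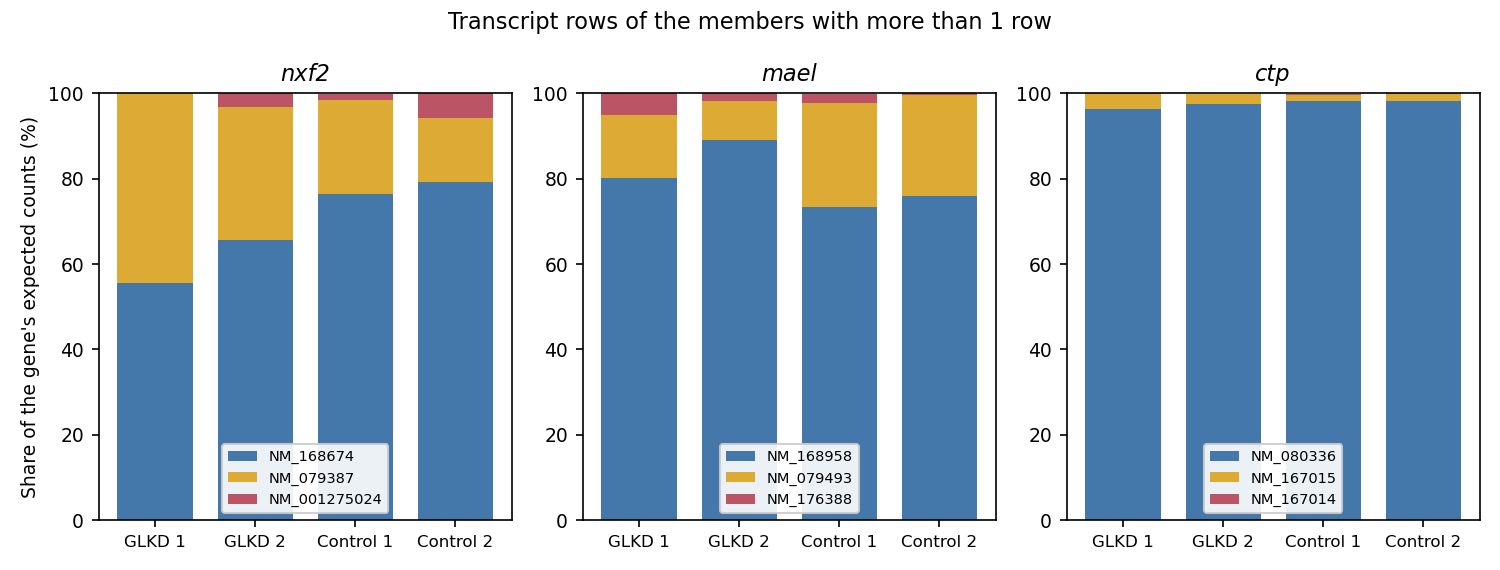
Share of each gene's expected counts (percent, stacked bars from 0 to 100) on each transcript row in Nup358GLKD (GLKD) and Control replicates 1 and 2. The second nxf2 row (yellow) takes 44.3% and 31.1% in Nup358GLKD against 22.1% and 15.0% in Control, and the second mael row takes 14.8% and 9.13% in Nup358GLKD against 24.3% and 23.7% in Control.

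Genes of Piwi-directed silencing and related chromatin genes were followed as a list of 19, all of them tested. They are called silencing partners here, and a role of each with the Panx complex was not tested. The list includes Piwi, the H3K9 methyltransferases, HP1a, SUMO pathway enzymes, histone deacetylase and demethylase subunits, the germline linker histone BigH1 and Nxt1. In Nup358GLKD 4 fell (CoRest, wde, egg and HDAC1), beside 9.03% of all features, 1 rose (lwr), beside 9.59%, and 14 did not pass. DESeq2 called 6 lower and 1 higher, beside 19.3% and 18.8% of features. At an unadjusted p under 0.05, which 45.2% of all features met, 7 were lower and 1 higher. The median log2 change was −0.29, beside 0.01 over all features tested. Of the 19, 16 were negative, of which 4 passed, and the share of all features with a negative change was not counted. Both knockdown libraries lay below both Control libraries for 10, beside 39.8% of all features, and above them for 2, beside 37.9%. The counts rested on both Control libraries. Without either one no feature of any kind was called, so those fits show nothing particular to the 19. Without Nup358GLKD replicate 1, 12 were lower and 3 higher, beside 33% and 29.3% of all features, and without replicate 2, 12 were lower and 2 higher, beside 39.7% and 35.7%.

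The enzyme that writes H3K9 methylation at Piwi targets, the SETDB1 homologue egg, fell together with its cofactor wde. egg had 51.9 and 64.2 CPM in Nup358GLKD and 104 and 106 CPM in Control (log2 change −0.85, SE 0.15, edgeR adjusted p = 0.0398), and wde had 64.4 and 63.5 CPM in Nup358GLKD and 141 and 143 CPM in Control (log2 change −1.15, SE 0.10, adjusted p = 0.0279). For both genes the knockdown libraries stood clear of Control, and those of wde were nearly equal. The other H3K9 methyltransferases did not pass: G9a had 330 and 405 CPM in Nup358GLKD and 448 and 467 CPM in Control (adjusted p = 0.169), and Su(var)3-9 had 25.7 and 20.4 CPM in Nup358GLKD and 22.5 and 24.8 CPM in Control (adjusted p = 0.871). Nor did the gene of HP1a, the protein that binds methylated H3K9, with 253 and 286 CPM in the knockdown and 326 and 330 CPM in Control (adjusted p = 0.133).

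CoRest and HDAC1 (Rpd3) belong to complexes that remove active histone marks. CoRest had 61.7 and 70.7 CPM in Nup358GLKD and 153 and 161 CPM in Control, the lowest log2 change of the list at −1.25 (SE 0.12, edgeR adjusted p = 0.0279). HDAC1 had 142 CPM in each knockdown library and 246 and 245 CPM in the Control libraries (−0.79, SE 0.10, adjusted p = 0.0292). Su(var)3-3, the H3K4 demethylase Lsd1 that works with CoRest, had 36.1 and 56.9 CPM in Nup358GLKD and 79.1 and 82.7 CPM in Control, with a wider knockdown spread, and did not pass (−0.80, SE 0.26, adjusted p = 0.0919). The nucleosome remodeller Mi-2 and its partner MEP-1 overlapped between groups (adjusted p = 0.952 and 0.593).

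Piwi-directed silencing also uses the small modifier SUMO. lwr, the SUMO-conjugating enzyme Ubc9, rose, with 247 and 271 CPM in Nup358GLKD and 172 and 176 CPM in Control (log2 change 0.57, SE 0.11, edgeR adjusted p = 0.0417), but did not pass with total counts (adjusted p = 0.0625), with no filter (0.0628) or with a replicate block (0.0526). Aos1, a subunit of the SUMO-activating enzyme, had 76.3 and 117 CPM in the knockdown and 160 and 162 CPM in Control and did not pass (−0.73, SE 0.24, adjusted p = 0.0956). Its partner Uba2, the SUMO gene itself and the SUMO ligase gene Su(var)2-10 did not pass either (adjusted p = 0.148, 0.554 and 0.427).

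piwi had 277 and 264 CPM in Nup358GLKD and 228 and 231 CPM in Control. Both knockdown libraries lay above Control, opposite to Panx and mael, and the log2 change of 0.24 (SE 0.10, 95% interval −0.04 to 0.51) did not pass (edgeR adjusted p = 0.142). The zinc finger gene sov, needed for HP1a-dependent silencing, had 109 and 105 CPM in Nup358GLKD and 139 and 133 CPM in Control (−0.35, SE 0.10, adjusted p = 0.0778). BigH1, the germline linker histone, had 207 and 483 CPM in Nup358GLKD and 396 and 398 CPM in Control, so that its knockdown replicates fell on both sides of Control.

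**Figure D3:**
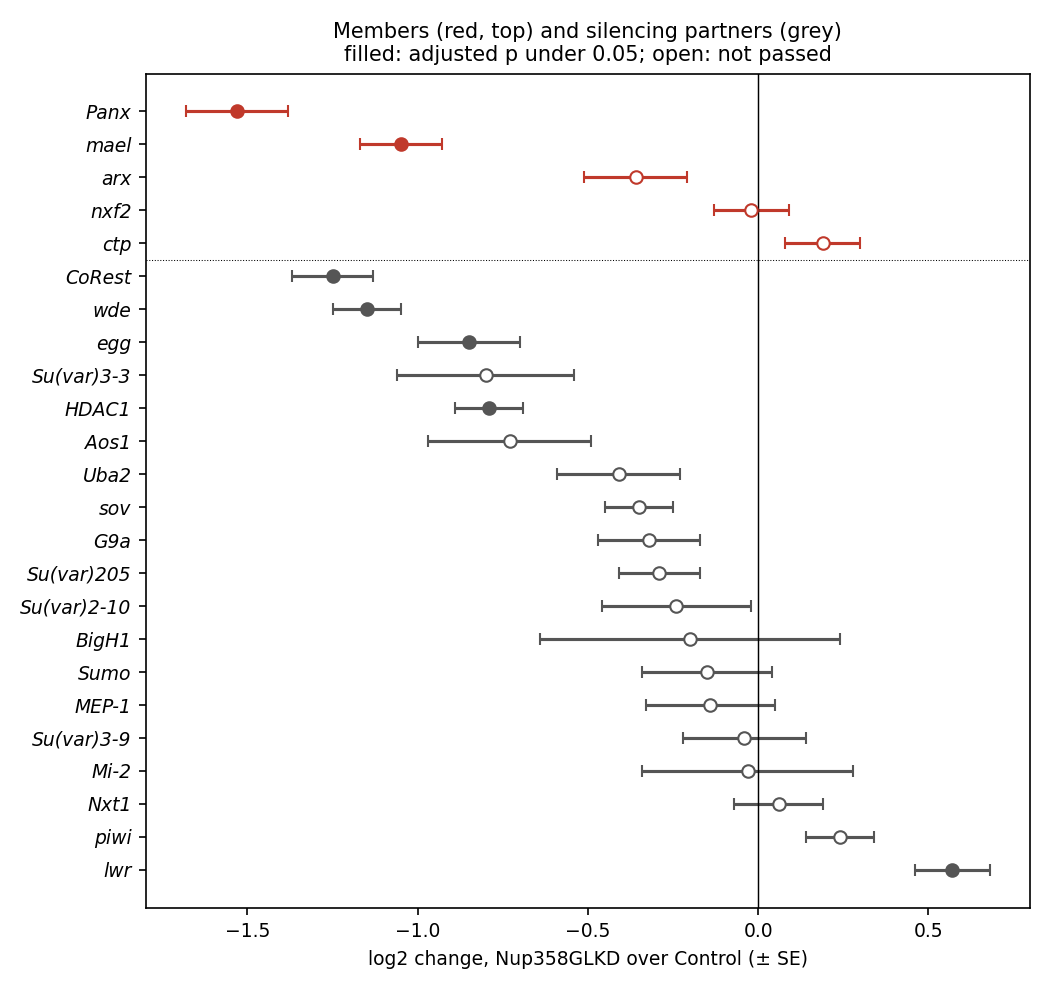
Log2 change (Nup358GLKD over Control) with its standard error from edgeR for the 5 members (red, above the dotted line) and the 19 silencing partners (grey, below it); filled points passed at an adjusted p under 0.05. Panx at −1.53, CoRest at −1.25, wde at −1.15 and mael at −1.05 lie farthest to the left, and lwr at 0.57 is the 1 filled point to the right of 0.

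**Figure D4:**
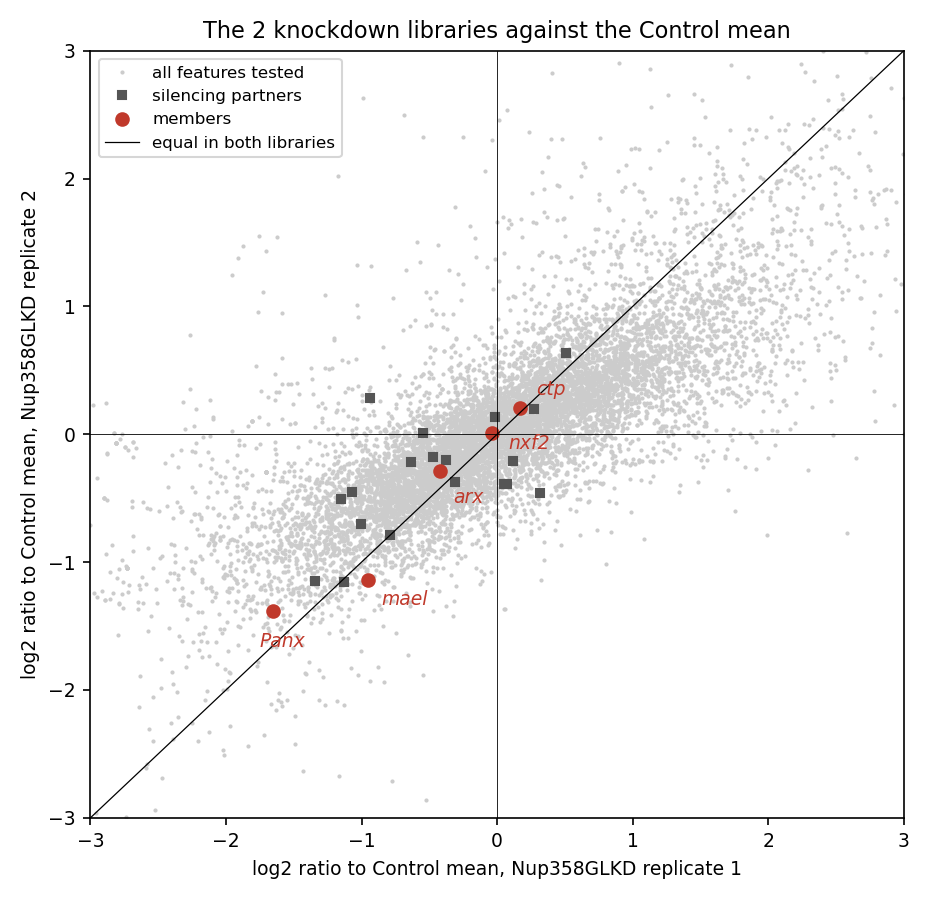
Log2 ratio of each knockdown library to the Control mean (log2 of CPM + 0.5), replicate 1 across and replicate 2 up, for all features tested (pale points, 177 of them outside the range shown), the silencing partners (squares) and the members (red circles). The 5 members lie close to the line of equal values, and some partners such as BigH1 (207 and 483 CPM) lie far from it.

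The families to which nxf2, arx and ctp belong gave no call in edgeR, which called 18.6% of all features, beside 38.1% called in DESeq2 and 45.2% with an unadjusted p under 0.05. Among the other NXF and Nxt genes, the general mRNA export receptor sbr (Nxf1) had 105 and 102 CPM in Nup358GLKD and 77.0 and 78.5 CPM in Control (log2 change 0.42, SE 0.10, adjusted p = 0.0597, and 0.0212 in DESeq2). Nxf3, which exports piRNA cluster transcripts in germ cells, had 72.9 and 82.8 CPM in Nup358GLKD and 100 and 94.0 CPM in Control (−0.32, SE 0.12, adjusted p = 0.124). nxf4 was at 0 in all 4 libraries and could not be tested. Of the 3 tested genes other than nxf2 in this family 0 passed in edgeR, 1 (sbr) was higher at an unadjusted p under 0.05 and in DESeq2, and limma-voom called 0. The Gtsf1 relatives of arx likewise gave 0 calls of 2 tested in edgeR, DESeq2 and limma-voom, with 1 higher at an unadjusted p under 0.05. That was CG32625, with 25.7 and 19.8 CPM in Nup358GLKD and 14.9 and 16.0 CPM in Control, whereas CG14036 had 40.6 and 81.7 CPM in Nup358GLKD and 77.2 and 81.2 CPM in Control. Of 9 tested dynein and dynactin genes that share the motor with ctp, 0 passed in edgeR, DESeq2 or limma-voom and 0 had an unadjusted p under 0.05, with a median log2 change of −0.07. The dynein intermediate chain sw, to which ctp binds, had 168 and 166 CPM in Nup358GLKD and 171 and 167 CPM in Control. The heavy chain Dhc64C had 467 and 271 CPM in Nup358GLKD and 246 and 213 CPM in Control and did not pass (adjusted p = 0.158).

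Genes next to the members on the chromosome were examined because the strand setting of the counting is not given in the sources used here, so that reads of overlapping genes cannot be told apart. Panx lies on chromosome arm 2R, arx, nxf2 and mael lie on 3L, and ctp lies on X. In the BDGP6 annotation the exons of Panx share 44 bases with Arms on the opposite strand, those of nxf2 share 13 bases with mbf1, and those of mael share 246 bases with CG14451 and 1 base with CG14450. These overlapping genes did not pass in edgeR: Arms had 132 and 93.6 CPM in Nup358GLKD and 130 and 128 CPM in Control, mbf1 had 184 and 209 CPM in Nup358GLKD and 177 and 186 CPM in Control, and CG14450 had 13.4 and 20.8 CPM in Nup358GLKD and 29.1 and 29.9 CPM in Control (edgeR adjusted p = 0.0942, and 0.0344 in DESeq2). CG14451 had 0.342 and 0.116 CPM in Nup358GLKD and 0.239 and 0.130 CPM in Control, far below mael in each library.

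Of the 14 neighbouring and overlapping genes tested, 2 fell in edgeR, beside 9.03% of all features, and 0 rose, beside 9.59%. DESeq2 called 4 lower and 1 higher, beside 19.3% and 18.8% of features, and limma-voom 3 lower and 0 higher, beside 11.2% and 10.1%. At an unadjusted p under 0.05, met by 45.2% of features, 5 were lower and 1 higher. The 2 that fell stand beside Panx and mael, to which many of the 14 belong, and a change shared along a locus was not tested. The other neighbours of Panx did not pass: Arms had a log2 change of −0.19 (adjusted p = 0.476) and asRNA:CR45149 of −0.48 (adjusted p = 0.254). CG9485, which stands head to head with Panx and encodes the glycogen debranching enzyme, had 41.5 and 70.1 CPM in Nup358GLKD and 161 and 155 CPM in Control. Its log2 change of −1.50 (SE 0.29, adjusted p = 0.0443) was close to the −1.53 of Panx, with a wider spread between the knockdown replicates. CG11367, next to mael, had 16.6 and 25 CPM in Nup358GLKD and 54.1 and 54.7 CPM in Control (−1.39, SE 0.24, adjusted p = 0.0397). CG32452, on the other side of mael, had 17.1 and 29.9 CPM in Nup358GLKD and 58.2 and 60.4 CPM in Control and missed the threshold in edgeR (−1.33, SE 0.31, adjusted p = 0.0566) but not in DESeq2 (adjusted p = 0.000785). The neighbours of arx, nxf2 and ctp did not pass in edgeR. RpL26, a ribosomal protein gene beside arx, was higher in both knockdown libraries, opposite in direction to arx. It had 1904 and 1409 CPM in Nup358GLKD and 997 and 1003 CPM in Control. Its log2 change of 0.73 (SE 0.19, adjusted p = 0.0686) passed in DESeq2 (adjusted p = 0.00747), as the 1 neighbour called higher there. Without Control replicate 1 and without Control replicate 2 the log2 change was −1.5 and −1.55 for CG9485 and −1.42 and −1.41 for CG11367. No feature of any kind was called in those fits, so they cannot set these genes apart from others.

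**Figure D5:**
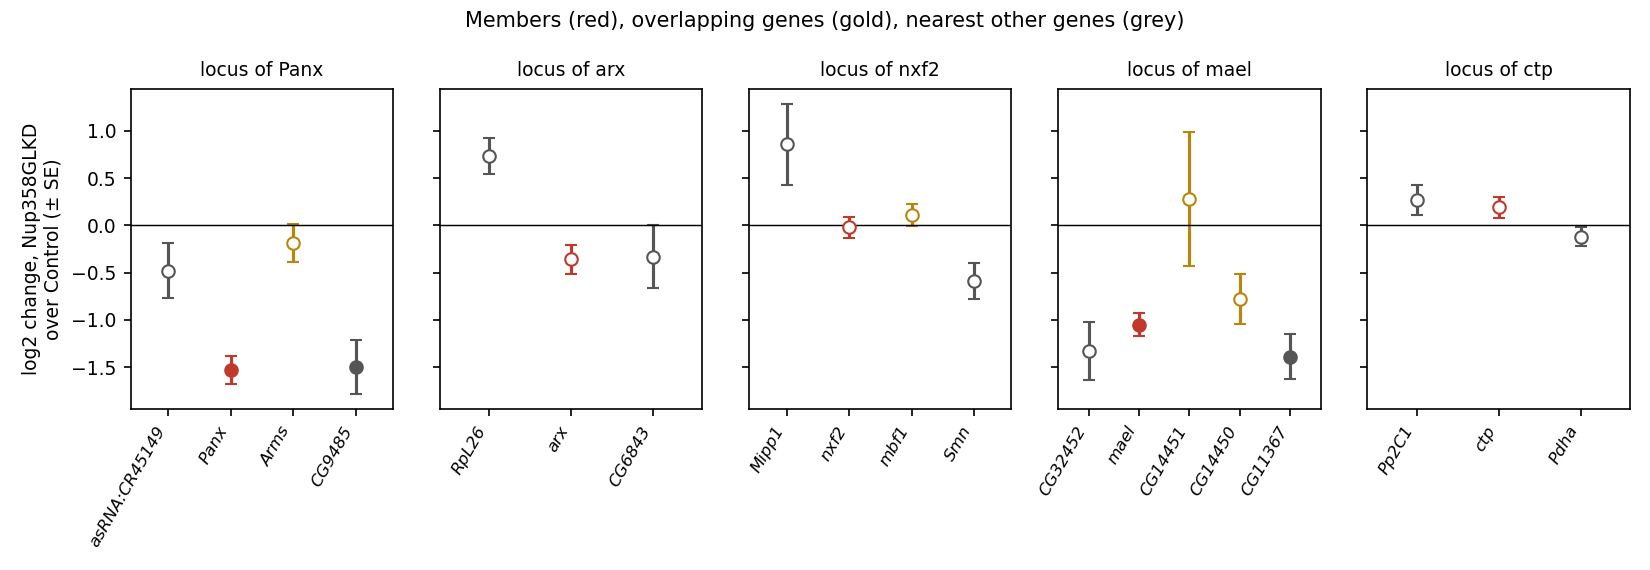
Log2 change (Nup358GLKD over Control) with its standard error for each member (red), genes that overlap it (gold, drawn to its right) and the nearest other gene on either side (grey), one panel per member; filled points passed at an adjusted p under 0.05. Panx and CG9485 lie near −1.5, and the neighbours of nxf2 and ctp lie on both sides of 0. Beside mael (−1.05), the nearest other genes CG32452 (−1.33) and CG11367 (−1.39) lie lower. The genes that overlap mael, CG14451 (0.28) and CG14450 (−0.78), lie higher than mael.

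Genes with a profile like that of a member were found by the Euclidean distance between their 4 log2(CPM + 0.5) values, each taken relative to the gene's own Control mean, among 7163 features with a mean of at least 5 CPM. Over only 4 libraries this names genes of like size of change and nothing more. Nearest to Panx were CG43345 (distance 0.0645), CG5554 (0.0721) and Rai1 (0.0828), a partner of an RNA exonuclease, all of which fell. Rai1 had 12.4 and 16.2 CPM in Nup358GLKD and 41.2 and 41.8 CPM in Control. Nearest to mael were GAA1 (0.0249), a subunit of the enzyme that attaches GPI anchors, the ionotropic receptor gene Ir76a (0.0698) and por (0.0947), the Wnt acyltransferase porcupine, which fell as well. GAA1 had 143 and 124 CPM in Nup358GLKD and 275 and 276 CPM in Control. Nearest to arx were CG2004, TfIIEalpha and CG6276 (0.0203 to 0.0298), nearest to nxf2 Cdc27, CG17652 and qkr54B (0.0202 to 0.0252), and nearest to ctp CG10375, ND-20 and cg (0.0216 to 0.0257), none of which passed.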

How the data were processed

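Per the labels' protocols, total RNA of 10 to 15 pairs of ovaries was enriched for poly(A) RNA and turned into libraries (TruSeq RNA Sample Prep Kit). RSEM, Bowtie2 and the build dm3 are named per the submitters' processing notes. Their versions, the annotation release and the strand setting were not given in the sources used here. The deposited table holds expected counts per RefSeq transcript, transposon family and piRNA cluster (34705 rows), not scaled for depth or length. No coordinates of the files were needed.

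RefSeq rows were summed per gene with the RefSeq table of assembly Release 6 (34035 of 34437 rows matched, 98.8%) and rounded to whole numbers. All features entered edgeR 4.0.16 (R 4.3.3) after filterByExpr (minimum count 10, minimum total 15) and TMM scaling. The quasi-likelihood test compared the groups (glmQLFTest after glmQLFit, legacy=FALSE, robust=TRUE), with Benjamini-Hochberg adjusted p under 0.05 over all features as threshold. Where no tool is named, an adjusted p is edgeR's. Each SE was derived from the test's F value, and 95% intervals used the degrees of freedom of the fit. The libraries held 58876800 to 60792292 counts, so that 3 counts, the floor for a 0, are 0.0493 to 0.051 CPM.

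DESeq2 1.42.0, limma-voom (limma 3.58.1) and other settings were alternatives. The code was tested on simulated data. A chi-square test found replicates of either group to differ beyond counting noise. The members and gene lists were chosen with earlier results of these data known. The plan had taken coding lengths from a protein table and named sequence comparisons. Lengths came from the BDGP6 annotation instead (the most common coding length of a gene's transcripts), and protein and promoter sequences were not analysed here. Named genes were Nup358, the members and their rows, passing genes of the lists and others of the lists where a count needs them, neighbours, and for each member the 3 genes with the most similar profile.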

Additional observations from a re-analysis of the deposited data

How the results depend on the processing

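Under 15 alternatives, Panx, mael, arx and ctp each kept their direction. Panx and mael kept their call under 12 of them. They lost it with rows not summed (log2 change −1.59, and −0.93 for the main mael row) and without either Control library, a fit with 1 Control library that assumes it to vary like the other group. Leaving out each library in turn, the log2 change ran from −1.70 to −1.40 for Panx, −1.14 to −0.99 for mael, −0.46 to −0.30 for arx, 0.14 to 0.20 for ctp, −0.0764 to 0.0057 for nxf2 and −2.09 to −1.21 for Nup358. The count of members lower ran from 0 to 3 and higher from 0 to 1, that of partners lower from 0 to 12 and higher from 0 to 3, and that of features lower from 0 to 4218 and higher from 0 to 3789. nxf2 turned positive with RLE factors (0.0029), upper-quartile factors (0.11), DESeq2 (0.0029) and a mean of at least 5 CPM (0.13). Against the TMM fit, a feature's log2 change was higher by a median of 0.15 with a mean of at least 5 CPM and of 0.12 with upper-quartile factors. Calls were 51.5% higher with TMM, 46.0% with total counts and 61.3% with upper-quartile factors. DESeq2 called 1964 features lower and 1916 higher, and a mean of at least 5 CPM left 607 lower. With rows not summed, 1 row was lower and 0 were higher, with 0 members and 0 partners called. lwr did not pass with total counts, no filter, the replicate block or rows not summed (0 partners higher in each). Nup358 passed with total counts (−1.67), DESeq2 (−1.55), limma-voom (−1.64), robust=FALSE (−1.57) and the replicate block (−1.64), and without Nup358GLKD replicate 1 (−2.09) or 2 (−1.21).

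Replicate numbers are shared by the groups, but the labels tie no shared batch to them. Same-numbered deviations correlated at 0.231 across features, over 2 numbers only. The replicate block gave 1132 lower and 1256 higher calls and changed no member's call. The SD of log2 differences between replicates was 0.668 in Nup358GLKD and 0.193 in Control.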
